A study of Mus musculus with 14 samples.

Results

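AP-1 is a dimeric transcription factor assembled from basic leucine zipper proteins of the FOS, JUN, ATF and BATF groups. The 9 genes described here are *Fos*, *Fosb*, *Fosl1* and *Fosl2* of the FOS family, *Jun*, *Junb* and *Jund* of the JUN family, and *Atf3* and *Batf*. They were chosen by gene symbol from the table of the SOX9 induction time course, which lists 54332 genes, and all 9 were found and passed the filter of 1 TPM on average, where TPM is a length-corrected share of the transcripts of a library. *Batf* passed it only through its level at week 12, as its mean without that timepoint was 0.328 TPM. The series holds 14 RNA-seq libraries, of which the 10 of the time course were used.

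All 10 libraries came from CD1 mice labelled K14rtTA; TRE-myc-Sox9, in which the basal keratinocyte promoter of keratin 14 drives a DOX-dependent activator and DOX then switches on a MYC-tagged *Sox9* transgene. D0 carried the same alleles and was taken at postnatal day 21 before DOX. W1, W2 and W6 had 1, 2 and 6 weeks of SOX9 and were taken at postnatal days 28, 35 and 63. The W12 skin had been grafted from newborn pups onto immunocompromised *Nude* hosts and had 12 weeks of SOX9. Each timepoint has 2 biological replicates, and nothing in the labels says how many animals entered a library. Cells were sorted from trypsinized back skin as epidermal stem cells (EpdSCs), depleted for CD31, CD45, CD117 and CD140a, high for CD49f and Ly6A and negative for CD34. All are labelled male. Age rises with time of induction and W12 alone is grafted, so SOX9, age and grafting cannot be told apart, and no induced-age control without the transgene was analysed here.

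The basal epidermal markers were high in every library, with 7 of 7 genes at or above 1 TPM and a sum of 31948 to 48529 TPM, most of it *Krt14*. Single basal genes were lower later: 1 of 7 was called lower than D0 at W2, 6 at W6 (14.1% of all genes tested) and 4 at W12 (25.1%), where *Ly6a* was higher. Without D0 replicate 2, described next, 1, 5 and 4 were lower and none was higher. At W12 *Trp63* (−1.83), *Col17a1* (−1.77), *Itgb4* (−1.73) and *Krt5* (−0.95) had fallen (log2, adjusted *P* of at most 0.0027), and the part of this in the AP-1 changes was not tested. The transgene entry MYC-SOX9 was 45.6 to 89.6 TPM at D0 and 606 to 3414 TPM after induction. Its mean was highest at W1 (3400 TPM) and lower at W2 (1681 TPM), W6 (984 TPM) and W12 (755 TPM). D0 replicate 2 went against its label. It had 4.61 TPM of *Xist*, an RNA of female cells, and 0.0278 TPM of the Y-linked *Ddx3y*, where D0 replicate 1 had 0.00103 and 32.1 TPM. Both W12 libraries had RNA of both kinds, with 3.50 to 5.51 TPM of *Xist* and 11.0 to 12.9 TPM of *Ddx3y*, and the graft hosts were female. Counts of called genes or median changes against D0 are therefore also given without D0 replicate 2 for the members and most gene lists. Of the cell type lists this covers the basal, suprabasal and bulge genes, and the others are given with all 10 libraries only. Shares of all genes tested are those of the full fit unless stated. TPM keep no read depth, so no counting interval can be given for any value.

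JUN proteins form dimers with each other or with FOS proteins, whereas FOS proteins need a JUN partner, and the dimers bind the TPA response element TGACTCA or the cAMP response element TGACGTCA. *Fos*, *Fosb*, *Junb*, *Jun* and *Atf3* are immediate-early or stress genes whose transcripts rise within minutes of growth factor, wounding or stress signals and decay as fast. Epidermis uses AP-1 both in the differentiation of keratinocytes and in wound and tumour responses. Enzymatic dissociation of a tissue is itself known to raise these transcripts, and no undissociated sample was analysed here.

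The promoters of the members were searched for short sequences known from the control of such genes, and the stretches below show where the letters match. The promoter table of RefSeq on GRCm38.p6 held 8 of the 9 genes, without *Fosl1*. The 250 bases before each start were searched on both strands for TGACTCA, TGACGTCA, its 5-base core TGACG, TGACATCA (the AP-1-like element known from *Jun*), the SOX core ACAAT and the CArG box of serum response factor. The 4 stretches below are the bases from 130 before the RefSeq start, ending before any annotated exon. They are printed 5′ to 3′ on the strand of the gene, with TGACG or TGACATCA in capitals.
Fos, chr12:85473760-85473889, plus strand: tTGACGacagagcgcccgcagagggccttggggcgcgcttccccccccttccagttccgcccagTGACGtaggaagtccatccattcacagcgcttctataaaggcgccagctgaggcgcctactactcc
Fosb, chr7:19310052-19310175, minus strand: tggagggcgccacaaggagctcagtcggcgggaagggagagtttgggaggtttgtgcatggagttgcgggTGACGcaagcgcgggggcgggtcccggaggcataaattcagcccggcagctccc
Junb, chr8:84978749-84978878, minus strand: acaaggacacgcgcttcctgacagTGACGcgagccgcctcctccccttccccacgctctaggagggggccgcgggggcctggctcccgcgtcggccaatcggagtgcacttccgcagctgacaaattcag
Jun, chr4:95052223-95052352, minus strand: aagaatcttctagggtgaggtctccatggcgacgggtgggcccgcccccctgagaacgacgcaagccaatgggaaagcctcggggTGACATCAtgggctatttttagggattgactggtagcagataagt

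*Fos* held TGACG at 66 to 62 and again at 129 to 125 bases before its start. *Fosb* held it at 60 to 56 bases and *Junb* at 106 to 102 bases. *Jun* held TGACATCA at 45 to 38 bases, an element found in 2.93% of all 32851 promoters in the table. Counting *Atf3* and *Batf*, 5 of the 8 members had TGACG, which 17.8% of all promoters also have. None of the 8 windows held TGACTCA (4.46% of all promoters), TGACGTCA (1.55%), ACAAT (27.7%) or the CArG box (1.47%). These are matches of letters in a short window, and they say nothing about binding in these cells.

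*Fos*, *Junb* and *Atf3* were among the most abundant transcripts of EpdSCs before induction, *Fosl2* was at a moderate level and *Batf* was near 0. Together the 9 genes made up 2.17% and 3.33% of all TPM in the D0 libraries and between 0.349% and 0.853% in the 8 libraries after induction. For 8 genes, all but *Batf*, both D0 libraries lay above all 8 induced libraries, an order that 8.31% of the 13110 genes tested had. With fewer AP-1 transcripts in a bulk library, fewer cells expressing them and less RNA per cell cannot be told apart.

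**Figure D1:**
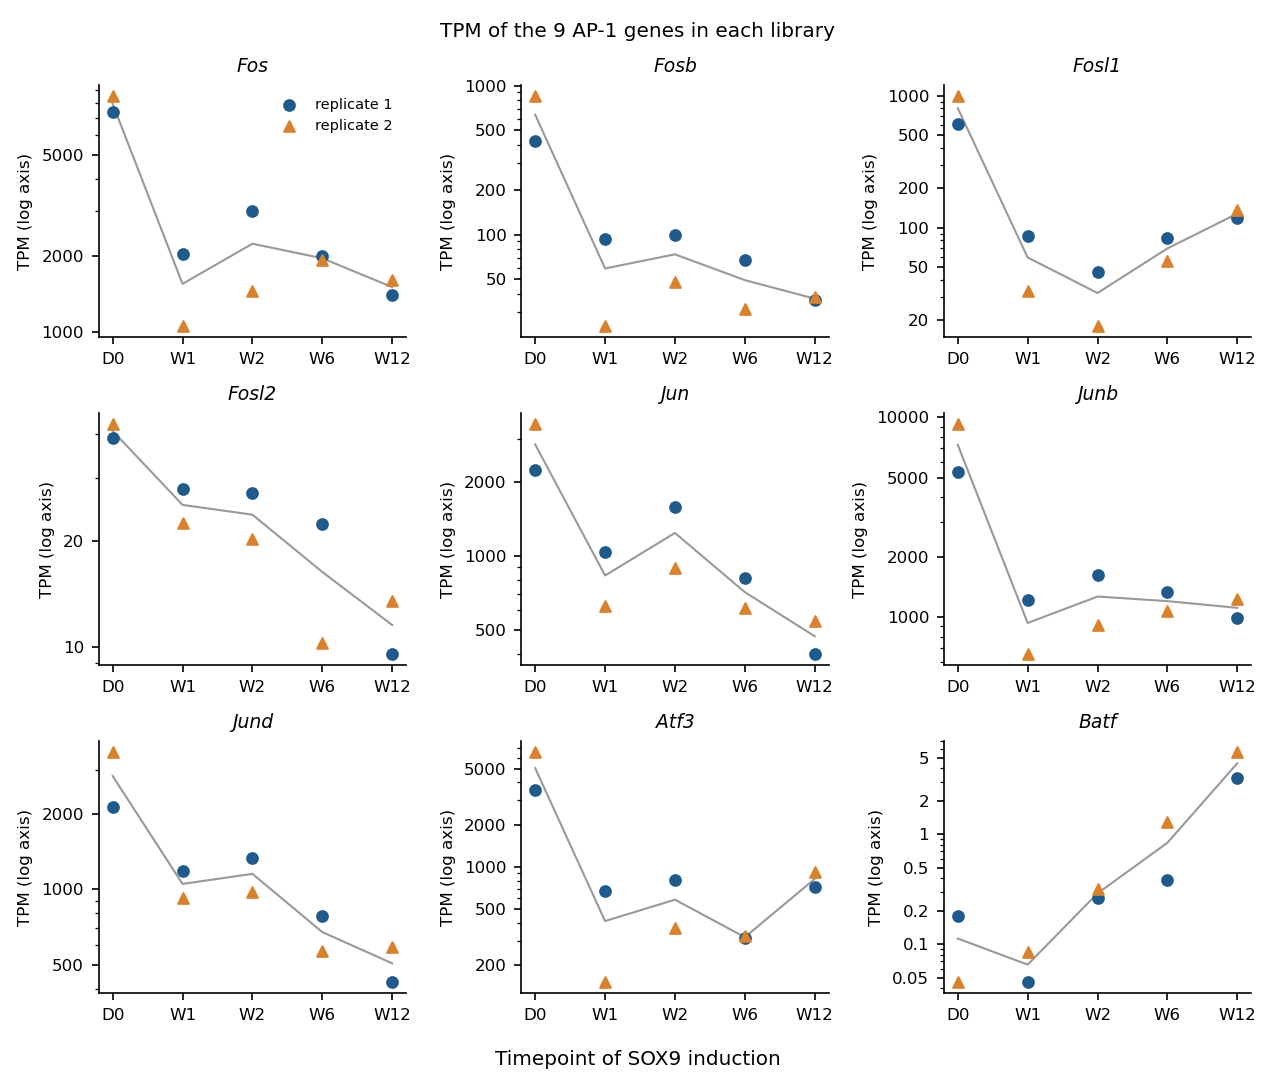
TPM of each AP-1 gene (log axis, a scale of its own in each panel) by timepoint of SOX9 induction, with 1 point per library (circles, replicate 1; triangles, replicate 2) and a line through the means. Both D0 libraries were the highest for 8 genes, and *Batf* alone was highest at W12.

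*Fos*, the prototype of the family (ENSMUSG00000021250.13, chromosome 12, 85473890 to 85477273, 4 exons; all gene positions on GRCm38), was at 7385 and 8547 TPM at D0. It was at 2036 and 1054 TPM at W1, 3005 and 1449 TPM at W2, 1986 and 1916 TPM at W6, and 1394 and 1606 TPM at W12. Ranked by mean TPM it was the 8th gene of all at D0 and the 100th at W12. Its level fell by 2.44 (log2, SE 0.37, adjusted *P* = 0.0049, limma with Benjamini-Hochberg adjustment over all genes tested, as in all fits below) at W1. The change was −1.93 (adjusted *P* = 0.010) at W2, −2.03 (adjusted *P* = 0.0047) at W6 and −2.41 (adjusted *P* = 0.0014) at W12. In the order of their means (W2, W6, W1 and W12) each induced timepoint overlapped with the next. The W2 call was lost without W2 replicate 2 (−1.40).

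*Fosb* (chromosome 7, 19302696 to 19310051), a short-lived activator often induced together with *Fos*, was at 423 and 851 TPM in the D0 libraries and had dropped to 94.1 and 24.4 TPM by W1. It was at 99.6 and 47.8 TPM at W2, 67.1 and 31.8 TPM at W6, and 36.1 and 38.1 TPM at W12. In the order of their means each later timepoint overlapped with the next, and none reached D0. The log2 change from D0 ran from −3.10 at W2 (SE 0.64, adjusted *P* = 0.014) to −3.98 at W12 (adjusted *P* = 0.0017). The call at W1 was lost without D0 replicate 2 (−3.11) or W1 replicate 2 (−2.66), and that at W2 without D0 replicate 2 (−2.60) or W2 replicate 2 (−2.58).

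*Fosl1* (chromosome 19, 5447547 to 5455946) encodes FRA1, a FOS protein without a strong activation domain that marks migrating and transformed epithelia. It was at 613 and 993 TPM at D0, 86.0 and 32.9 TPM at W1 and 46.0 and 18.0 TPM at W2. It then stood at 83.5 and 55.6 TPM at W6 and 119 and 136 TPM at W12. Both W12 libraries were thus above the other 6 induced libraries and still below D0. The change from D0 was −4.71 (SE 0.52, adjusted *P* = 0.00081) at W2, the largest of any member and timepoint, and −2.60 (adjusted *P* = 0.0044) at W12.

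*Fosl2* (chromosome 5, 32135801 to 32157842), which encodes FRA2, was the least abundant FOS member at D0, with 39.0 and 42.8 TPM. It was at 28.1 and 22.4 TPM at W1, 27.2 and 20.2 TPM at W2, 22.3 and 10.3 TPM at W6, and 9.56 and 13.5 TPM at W12. D0 did not overlap with any later timepoint, whereas each later timepoint overlapped with the next. The differences at W1 (−0.68, SE 0.33, adjusted *P* = 0.24) and W2 (−0.78, adjusted *P* = 0.15) did not pass the threshold, and *Fosl2* fell at W6 (−1.37, adjusted *P* = 0.015) and W12 (−1.76, adjusted *P* = 0.0035). Without W6 replicate 2 the W6 change was −0.84 and without D0 replicate 2 it was −1.30, and neither passed the threshold. The W2 change, with the value unmoved, was called when either W6 library was left out.

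Of the JUN family, all single-exon genes, *Jun* (chromosome 4, 95049034 to 95052222) is the main partner of FOS proteins and binds DNA also as a homodimer. It was at 2251 and 3467 TPM at D0, 1043 and 625 TPM at W1 and 1591 and 897 TPM at W2. It was at 813 and 612 TPM at W6 and at 399 and 543 TPM at W12, below every other library. It fell at W1 (−1.79, SE 0.36, adjusted *P* = 0.016), W6 (−1.98, adjusted *P* = 0.0044) and W12 (−2.58, adjusted *P* = 0.00082), and the W2 change of −1.22 missed the threshold (adjusted *P* = 0.051). The call at W1 was lost without D0 replicate 2 (−1.48) or W1 replicate 2 (−1.42), and the W2 change passed without D0 replicate 1 (−1.54).

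*Junb* (chromosome 8, 84974484 to 84978718), which can oppose JUN, was the 9th gene of all at D0, with 5321 and 9271 TPM. It was at 1218 and 656 TPM at W1, 1629 and 911 TPM at W2, 1333 and 1077 TPM at W6, and 994 and 1237 TPM at W12. In the order of their means each induced timepoint overlapped with the next. The change was between −2.53 at W2 (SE 0.39, adjusted *P* = 0.0037) and −2.97 at W1 (adjusted *P* = 0.0024), and was −2.66 at W12 (adjusted *P* = 0.0010).

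*Jund* (chromosome 8, 70698949 to 70700616), the JUN member known for steady expression in resting cells, was at 2132 and 3529 TPM at D0. It was at 1177 and 921 TPM at W1, 1329 and 973 TPM at W2, 782 and 566 TPM at W6, and 426 and 585 TPM at W12. W1 and W2 overlapped, as did W6 and W12, and the early pair did not overlap with the late pair. The change deepened from −1.40 at W1 (SE 0.30, adjusted *P* = 0.021) and −1.27 at W2 (adjusted *P* = 0.023) to −2.04 at W6 (adjusted *P* = 0.0016) and −2.46 at W12 (adjusted *P* = 0.00042). The W1 call was lost without D0 replicate 2 (−1.03), W1 replicate 1 (−1.57) or W1 replicate 2 (−1.22), and the W2 call without D0 replicate 2 (−0.91), W2 replicate 1 (−1.49) or W2 replicate 2 (−1.04).

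*Atf3* (chromosome 1, 191170296 to 191218039), a stress-induced factor that can act as a repressor, was at 3508 and 6572 TPM at D0. Its replicates were the least alike at W1, with 673 and 152 TPM, and it was at 803 and 368 TPM at W2. It was at 311 and 323 TPM at W6 and at 726 and 920 TPM at W12. The falls were −3.90 at W1 (SE 0.64, adjusted *P* = 0.0065), −3.14 at W2 (adjusted *P* = 0.013), −3.92 at W6 (adjusted *P* = 0.0027) and −2.55 at W12 (adjusted *P* = 0.012). Without D0 replicate 2, or without either W12 library, the W12 change (−2.10, −2.38 and −2.72) no longer passed the threshold, nor did the W2 change without D0 replicate 2 (−2.69) or W2 replicate 2 (−2.58).

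*Batf* (chromosome 12, 85686669 to 85709087) lacks an activation domain, pairs with JUN proteins and is best known from lymphocytes and dendritic cells. It was near 0 at D0, with 0.180 and 0.0460 TPM, and at W1, with 0.0456 and 0.0855 TPM. It was at 0.263 and 0.319 TPM at W2, 0.388 and 1.29 TPM at W6, and 3.25 and 5.62 TPM at W12. Both W12 libraries were the highest, as for 10.1% of the genes tested. The fitted difference from D0 was 2.26 (SE 0.31) at W12 and 0.68 (SE 0.31) at W6, on a log2(TPM + 1) scale that understates changes this close to 0. As *Batf* was tested only because of its W12 level, its W12 differences are given as a description, with no *P* value.

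Markers of other cell types and layers also moved at W12, where *Batf* was highest. The 4 suprabasal genes summed to 1888 to 5768 TPM at D0, 3722 to 7312 TPM at W1 and W2, 11858 to 12479 TPM at W6 and 11926 to 13540 TPM at W12. Of these *Krtdap* rose by 2.81 at W6 and 2.84 at W12 and *Sbsn* by 0.98 and 1.19 (adjusted *P* from 0.0075 to 0.0497). The keratins *Krt1* and *Krt10* were not called. *Krtdap* was at 3314 TPM in D0 replicate 1 and 647 TPM in D0 replicate 2. Without D0 replicate 2 the median change of the suprabasal list was 0.12 at W6 and 0.42 at W12, against 0.80 and 1.11 with it. The summed TPM of 5 T cell genes (*Cd3e*, *Cd3g*, *Trdc*, *Trac* and *Cd2*) was 0.867 to 0.956 at W12 and 0.785 to 2.57 at the other timepoints, with no rise and 1 gene at 0 in both W12 libraries. The 5 Langerhans and other immune cell genes summed to 21.1 to 33.1 TPM at D0 and 25.3 to 37.8 TPM at W1 and W2. Their sum was 4.29 to 5.28 TPM at W6, where 2 of the 3 tested were called lower than D0 (14.1% of all genes), and 148 to 163 TPM at W12. The W12 sum rested on the class II genes *H2-Aa* and *Cd74*, which rose by 2.81 and 2.45 (adjusted *P* = 7.8e-05 and 0.00055). The other genes of that list did not rise with them at W12. *Tyrobp* was at 1.17 and 1.21 TPM at W12 and 1.01 and 1.17 TPM at D0, and *Ptprc* was at most 0.327 TPM in any library. The Langerhans gene *Cd207* was at 0 and 0.0356 TPM at W12 and 0.239 and 0.486 TPM at D0. The 3 endothelial genes summed to 28.9 to 66.8 TPM at W12 and to at most 1.35 TPM before, with all 3 at 1 TPM or more in both W12 libraries. The 4 fibroblast genes summed to 13.5 to 27.6 TPM against 0.428 to 52.1 TPM, nearly all of it *Dcn* (13.2 and 27.2 TPM at W12). The 4 melanocyte genes summed to 1.13 to 4.82 TPM at D0, up to 11.2 TPM at W6 and 10.2 to 11.5 TPM at W12, where *Dct* had risen by 1.30 (adjusted *P* = 0.042). *Tyrp1*, which passed the filter only through W12, was at 0.0691 and 0.683 TPM at D0 and 3.19 and 2.57 TPM at W12. Of the 4 bulge genes, *Cd34* rose to 16.5 and 32.0 TPM at W12, and *Lgr5* (0.52) and *Lhx2* (−0.58) were not called. *Krt24* fell by 1.61 (adjusted *P* = 0.017), from 2.64 and 2.85 TPM at D0 to 0.512 and 0 TPM at W12. Its call was lost without D0 replicate 2. The part of these cells in the AP-1 results, *Batf* included, was not tested.

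In the fit over all 13110 genes, 7 of the 9 members fell at W1 against D0, all but *Fosl2* and *Batf*, where 4.1% of all genes tested were called lower. At W2, 6 members fell (background 6.64%), with *Fosl2*, *Jun* and *Batf* not called. At W6, 8 members fell (14.1%), and at W12 8 fell (25.1%). The members' median change was −2.44, −1.93, −2.04 and −2.55 at the 4 timepoints, against 0.09, 0.06, 0.08 and −0.08 over all genes tested. The 6 genes *Fos*, *Fosb*, *Fosl1*, *Junb*, *Jund* and *Atf3* were lower at all 4 timepoints, as were 2.08% of the genes tested. An *F* test over the 4 timepoints called 9 of 9 members, and 57.5% of all genes; that of *Batf* rests on the W12 level that let it into the fit. The 4 contrasts share the D0 libraries and are not independent. Without D0 replicate 2, the library at odds with its label, 4, 3, 7 and 7 members fell, where 3.41%, 4.51%, 7.96% and 16.9% of all genes did, and their median change was −2.33, −1.82, −1.92 and −2.26. With only the 4 libraries of D0 and W1 in the fit, 1 member was called at W1, *Fosl1* (3.14% of all genes called), and *Junb* (adjusted *P* = 0.055), *Fos* (0.065), *Fosb* (0.090) and *Atf3* (0.091) were among those that missed the threshold with the same change. With no filter on low values, 3 were called at W1 (1.56% of all genes) and 2 at W2 (2.59%). Without W1 replicate 2, 4 members were called at W1 (2.88% of all genes), and without W2 replicate 2, 2 were called at W2 (4.97%).

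**Figure D2:**
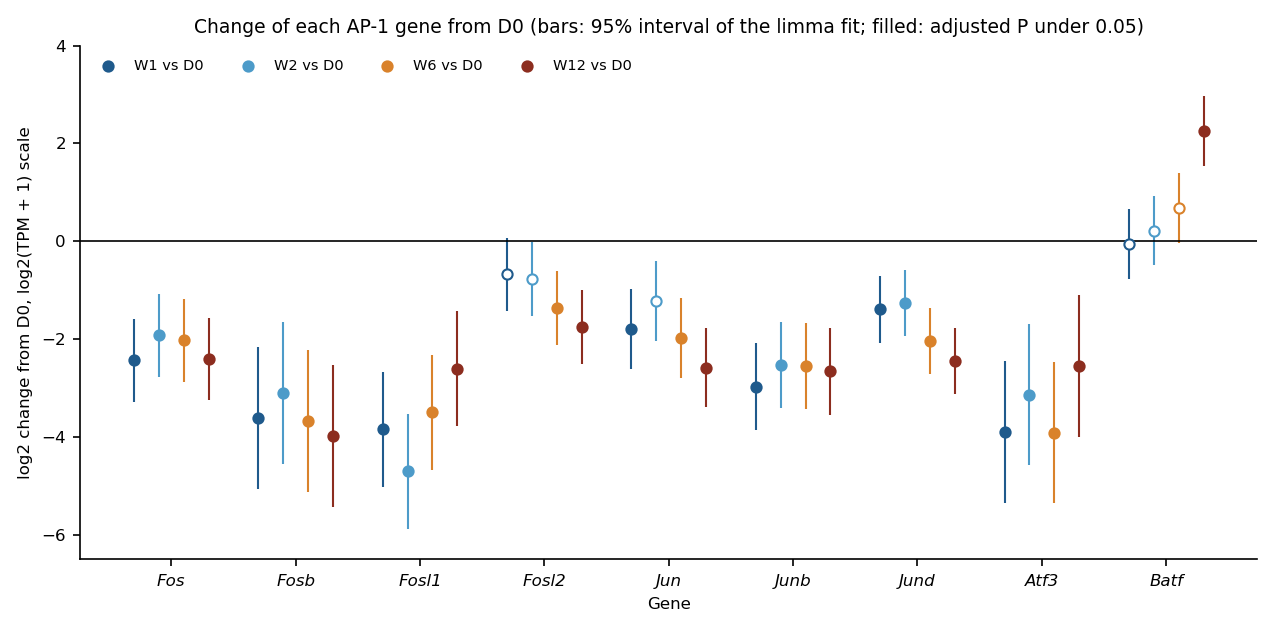
Log2 change of each AP-1 gene from D0 at W1, W2, W6 and W12, on the log2(TPM + 1) scale. Bars are 95% intervals of the limma fit, filled points passed an adjusted *P* of 0.05, and the 8 genes other than *Batf* lie below 0 throughout. *Batf* at W12 (2.26) entered the fit only through its level at that timepoint.

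Between successive induced timepoints few members were called. No member was called between W1 and W2, where 0.114% of genes were (none had an unadjusted *P* under 0.05). Between W2 and W6 none was called either (16.3% of genes were), with *Fosl1* and *Jund*, 2 members, at an unadjusted *P* under 0.05. From W6 to W12 none of the 8 members other than *Batf* was called or had an unadjusted *P* under 0.05 (20.2% of genes were called), and *Batf* was higher by 1.57 (SE 0.31). With a filter of 5 TPM, which *Batf* does not pass, 0 members were called in this step. Without W6 replicate 1, 1 member was called from W2 to W6 (20% of genes), and without W6 replicate 2, 1 member other than *Batf* was called from W6 to W12 (21.7% of genes).

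The longer step from W2 to W12 was added after the data had been seen. Of the 8 members other than *Batf*, 4 were called in it, near the 42.9% of all genes that were. *Fosl1* rose by 2.10 (SE 0.52, adjusted *P* = 0.011), and *Batf* was higher by 2.04 (SE 0.31). *Jun* fell by 1.36 (SE 0.36, adjusted *P* = 0.015), *Jund* by 1.19 (SE 0.30, adjusted *P* = 0.012) and *Fosl2* by 0.98 (SE 0.33, adjusted *P* = 0.041). *Fos* (−0.48), *Fosb* (−0.88), *Junb* (−0.14) and *Atf3* (0.59) were not called. The call of *Fosl1* was lost without W2 replicate 2 (1.45) and without W12 replicate 1 (2.20) or 2 (2.01), and those of *Jun* and *Jund* without W2 replicate 1 (−0.94 and −0.96) or W12 replicate 1 (−1.14 and −0.96). The call of *Fosl2* was lost in 8 of the settings that leave out a library, among them those without either W2 library (−0.77 and −1.19) or either W12 library (−0.75 and −1.21).

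To set other genes of the immediate-early response beside AP-1, 19 immediate-early genes outside the family, such as *Egr1*, *Ier2*, *Zfp36* and *Dusp1*, were averaged per library as log2(TPM + 1). This immediate-early score was 8.39 and 8.88 at D0, 7.05 and 6.54 at W1, 7.33 and 6.68 at W2, 6.99 and 6.67 at W6, and 6.94 and 7.28 at W12. No induced library reached the score of a D0 library. The 12 heat-shock genes differed less, with a mean of 8.13 and 8.11 at D0 and of 7.53 to 8.09 after induction.

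Of the 19 immediate-early genes, 13 fell at each of W1, W6 and W12 and 12 fell at W2, with 1 higher at W2 and 2 higher at W12. Of all genes tested in this fit, 4.1%, 6.64%, 14.1% and 25.1% were lower at W1, W2, W6 and W12. The median change of the 19 was −1.49, −1.40, −1.88 and −1.65 at these timepoints. With D0 replicate 2 left out it was −1.44, −1.31, −1.70 and −1.50. At W12 the largest falls among them were of *Ccn1* (−4.22), a matrix protein of wound responses, of the transcription factor *Egr1* (−3.62), of the nuclear receptor *Nr4a1* (−3.31), and of the growth inhibitor *Btg2* (−2.77), with adjusted *P* from 0.00056 to 0.0055. *Egr1* had a mean of 3316 TPM at D0 and 247 TPM at W12. Most of the immediate-early genes outside AP-1 were thus also lower after D0.

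**Figure D3:**
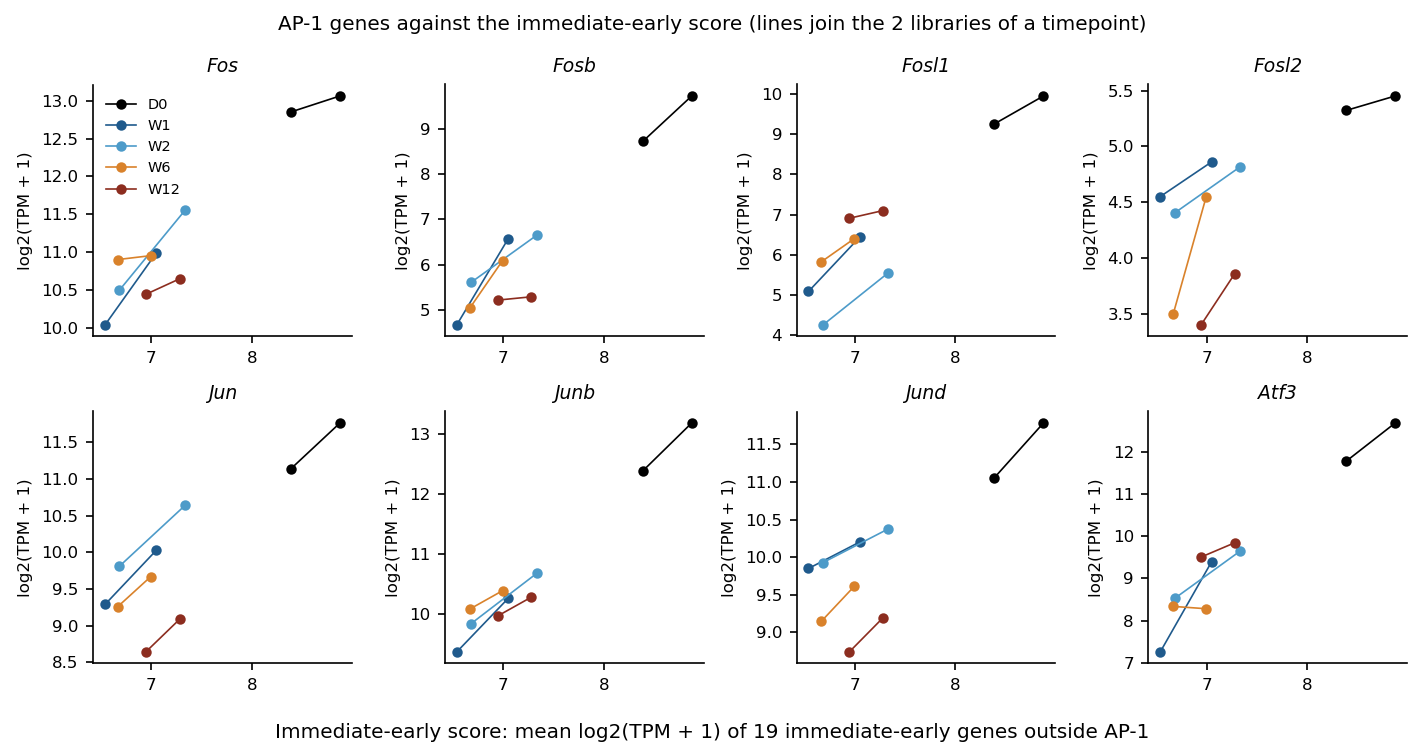
log2(TPM + 1) of 8 AP-1 genes against the immediate-early score of the library (mean log2(TPM + 1) of 19 genes outside AP-1), with 1 point per library and a line joining the 2 libraries of a timepoint. The D0 libraries (8.39 and 8.88) stand apart on the score, and most lines slope upwards.

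Within timepoints, too, the libraries could be set against the score. Of the 2 libraries of a timepoint, the one with the higher score also had more *Fos*, *Fosb*, *Fosl1*, *Fosl2*, *Jun*, *Junb* and *Jund* in 5 of 5 timepoints, and more *Atf3* in 4 of 5. For *Batf* this was so in 1 of 5. Of all genes tested, 5.13% had 5 of 5 and 21.2% at least 4 of 5. The members share these 5 pairs of libraries, so their counts are not independent. D0 replicate 2, W1 replicate 1, W2 replicate 1, W6 replicate 1 and W12 replicate 2 were the libraries with the higher score.

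With the score as a covariate in the limma fit, 0 members were called against D0 at any of the 4 timepoints, where 0.0305%, 0.183%, 0% and 2.25% of all genes were. At an unadjusted *P* under 0.05 there were 0 at W1, 2 at W2 (*Fosl1* and *Jun*), 0 at W6 and 1 at W12 (*Jund*), *Batf* left aside. Without D0 replicate 2 the median change of the 9 members in such a fit was −0.07, 0.23, 0.24 and −0.53 at the 4 timepoints. With all 10 libraries the change of *Fos* at W1 was −0.25 in the covariate fit, with a 95% interval from −1.59 to 1.08. That of *Jun* was 0.63 (−0.13 to 1.38). As the score separates D0 from all other libraries, the change shared with the score and the effect of SOX9 in the fall from D0 cannot be told apart.

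Set against the score of the same library, the members fell into several patterns. *Fosl2*, *Jun* and *Jund* at D0 lay within the range of the induced libraries: *Jun* was 2.75 to 2.88 above the score at D0 and 1.70 to 3.30 above it after induction (log2). *Fos* overlapped in part, at 4.19 to 4.46 at D0 and 3.37 to 4.24 after induction. *Junb* (3.99 to 4.30 against 2.82 to 3.41), *Fosb* (0.34 to 0.86 against −1.99 to −0.48), *Fosl1* (0.87 to 1.08 against −2.43 to −0.04) and *Atf3* (3.39 to 3.81 against 0.72 to 2.57) were higher at D0 relative to the score, without overlap, as were 0.328% of the genes tested. With D0 replicate 1 alone, *Fos* (4.46) too lay above the induced range. Subtraction takes 1 log2 unit of score as 1 log2 unit of each member, whereas the covariate fit estimates that slope, and the directions differed between them. In the covariate fit *Fosb* was above D0 by 0.43, 0.47 and 0.29 at W1, W2 and W6, *Atf3* by 0.21 at W2 and 0.58 at W12, and *Fosl1* by 0.24 at W12, none of them called.

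Among the induced timepoints, where the scores overlap, the covariate fit gave the same direction to the 4 members called without it from W2 to W12. From W2 to W12 it gave a rise of *Fosl1* (1.91, SE 0.20, adjusted *P* = 0.00038) and a difference of 2.05 for *Batf*. *Jun* (−1.49, adjusted *P* = 0.00016), *Jund* (−1.29, adjusted *P* = 0.00075), *Fosl2* (−1.07, adjusted *P* = 0.013) and *Fosb* (−1.11, adjusted *P* = 0.024) were lower in that fit, in which 43.2% of all genes were called. From W2 to W6 it called *Fosl1* higher (1.54, adjusted *P* = 0.0065) and *Jun* lower (−0.52, adjusted *P* = 0.040), with 11.2% of genes called. From W6 to W12 it called *Jun* (−0.97, adjusted *P* = 0.0040) and *Jund* (−0.69, adjusted *P* = 0.030) lower, and *Batf* was higher by 1.62, with 17.6% of genes called.

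As TPM are per transcript length, the members of a family can be set side by side within a library. *Fos* was 81.9% to 95.1% of the summed FOS family TPM in every library. *Fosl1* took 7.24% and 9.52% at D0, 1.45% and 1.17% at W2, and 7.64% and 7.59% at W12. Its share at W12 was thus within the D0 range while its level was not. *Fosl2* was at most 1.98% in any library.

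In the JUN family *Junb* took 54.8% and 57.0% at D0. Its share was 35.4% and 29.8% at W1, 35.8% and 32.8% at W2, 45.5% and 47.7% at W6, and 54.6% and 52.3% at W12. *Jund* moved the other way, from 22.0% and 21.7% at D0 to 34.2% and 41.8% at W1 and 23.4% and 24.7% at W12. *Jun* had its highest share at W2 (34.98% and 32.2%) and its lowest at D0 (23.2% and 21.3%) and W12 (21.9% and 22.96%).

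Of 4 comparisons of family composition by an exact two-sided permutation test over libraries, none passed after adjustment over the 4. The share of *Fos* and *Fosb* together in the FOS family was 91.2% ± 1.57 (SD, n = 2) at D0 and 95.1% ± 2.34 (SD, n = 8) after induction (exact permutation *P* = 0.089, adjusted *P* = 0.18). It was 96.3% ± 1.50 (SD, n = 4) over W1 and W2 and 93.8% ± 2.52 (SD, n = 4) over W6 and W12 (exact permutation *P* = 0.14, adjusted *P* = 0.19). The summed FOS over JUN TPM was 0.757 ± 0.163 (SD, n = 2) at D0 and 0.708 ± 0.134 (SD, n = 8) after induction (exact permutation *P* = 0.67, adjusted *P* = 0.67). It was 0.605 ± 0.0856 (SD, n = 4) over W1 and W2 and 0.812 ± 0.0753 (SD, n = 4) over W6 and W12, higher in 4 of 4 later libraries than in any earlier one (exact permutation *P* = 0.029, the smallest this design allows, adjusted *P* = 0.11).

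**Figure D4:**
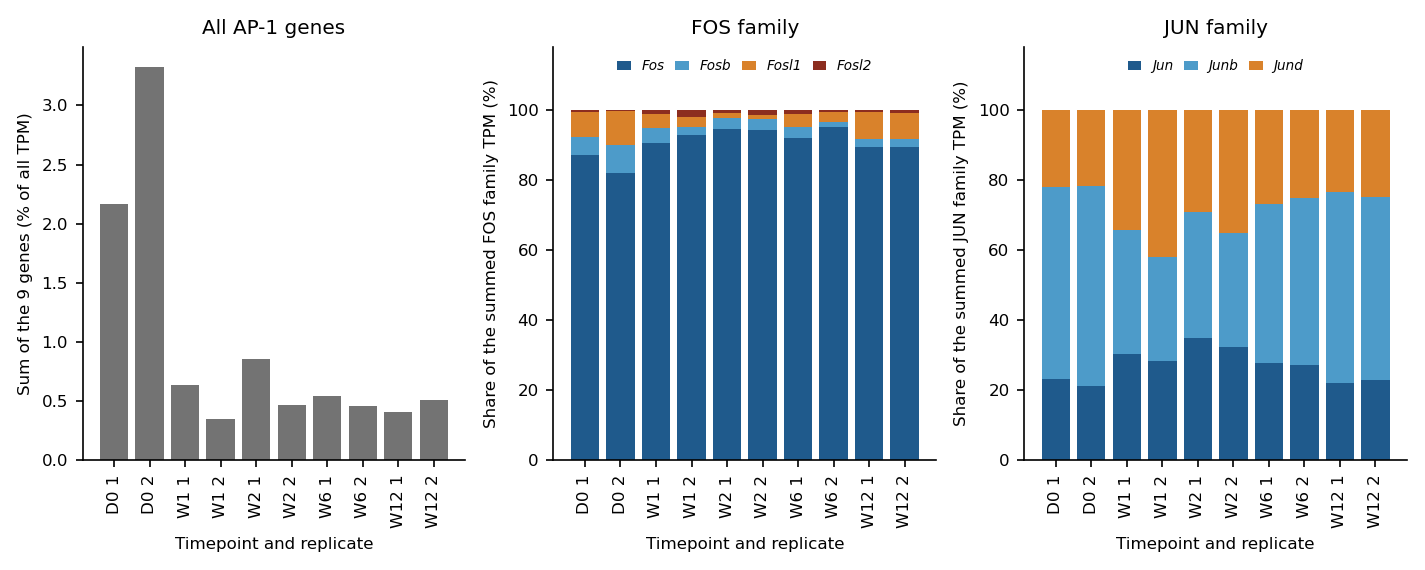
Left, summed TPM of the 9 AP-1 genes as a share of all TPM; middle and right, share of each gene in the summed TPM of the FOS and the JUN family (all in percent), with 1 bar per library. The total is 2.17% and 3.33% at D0 and at most 0.853% after induction, and the *Junb* share is lowest at W1 and W2.

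Of 16 related basic leucine zipper factors tested, 6 fell and 1 rose at W12 against D0, where 25.1% of all genes tested fell and 17.9% rose. The small MAF proteins *Maff* (−1.94, from 37.3 to 8.83 TPM) and *Mafk* (−1.88, from 176 to 44.6 TPM) fell, as did the stress factor *Atf4* (−1.24, from 503 to 210 TPM). The JUN dimerization repressor *Jdp2* rose by 1.96 (from 1.44 to 8.53 TPM). The adjusted *P* of these genes was at most 0.0019. At W1, W2 and W6 the same list had 4, 5 and 6 genes lower and 2, 2 and 1 higher. Of all genes tested, 4.1%, 6.64% and 14.1% were called lower and 5.79%, 9.06% and 18.3% higher at these 3 timepoints. Without D0 replicate 2, 2, 3, 4 and 5 were lower and 1 was higher at each of the 4 timepoints.

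Of 23 kinases and regulators upstream of AP-1, 2, 3, 5 and 9 were lower at the successive timepoints and 2, 2, 3 and 2 were higher. Over all genes tested 4.1%, 6.64%, 14.1% and 25.1% were lower and 5.79%, 9.06%, 18.3% and 17.9% higher, so most of these counts were near the background. At W12 the ERK phosphatase *Dusp5* fell by 2.43 (from 123 to 21.3 TPM), the kinase *Map3k1* by 1.83 (from 15.3 to 3.57 TPM) and *Srf*, the serum response factor, by 1.56 (from 96.1 to 31.6 TPM). *Elk3*, a partner of serum response factor, rose by 2.83 (from 0.999 to 13.2 TPM). The adjusted *P* of the 4 was at most 0.0013. The list's median change was −0.29 at W12. When D0 replicate 2 was left out, 1, 1, 2 and 8 were lower and 1, 2, 2 and 2 higher.

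Of 12 heat-shock genes, 1, 3, 3 and 4 fell at the successive timepoints and 0, 1, 1 and 1 rose. Of all genes tested, 4.1%, 6.64%, 14.1% and 25.1% fell and 5.79%, 9.06%, 18.3% and 17.9% rose. The 4 of 12 lower at W12 was near the background, whereas the 3 of 12 lower at W2 was above it. At W12 *Dnajb1* (−2.09), *Hspb1* (−1.67) and *Hsph1* (−1.13), all chaperones, fell and the constitutive *Hspa8* rose by 0.56 (adjusted *P* from 0.0052 to 0.049). The list's median change at W12 was 0.17. The counts without D0 replicate 2 were 1, 3, 1 and 3 lower and none higher.

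Genes known as AP-1 targets in other settings mostly rose at W12, where 8 of the 9 members were below D0. Of the 20 tested, 4 (*Il6*, *Mmp10*, *Mmp13* and *Plaur*) passed the filter only through W12. Of the other 16, 12 rose and 2 (*Hbegf* and *Lor*) fell at W12, while 3 rose and 3 fell at W1, 6 and 3 at W2, and 8 and 3 at W6. Of all genes tested in this fit, 17.9% were called higher and 25.1% lower at W12. The shares were 5.79% and 4.1% at W1, 9.06% and 6.64% at W2, and 18.3% and 14.1% at W6. The median change of the 20, the 4 included, was −0.003, 0.17, 0.31 and 3.82 at W1, W2, W6 and W12. Without D0 replicate 2 it was −0.11, −0.09, 0.37 and 3.51. *S100a9* rose by 8.80 (from 0.155 to 514 TPM), *S100a8* by 6.70 (from 6.56 to 556 TPM) and *Sprr1b*, a cornified envelope protein, by 8.10 (from 2.02 to 718 TPM), with adjusted *P* of at most 0.00041. The collagenase *Mmp13*, 1 of the 4 that passed only through W12, was at 0.0882 TPM at D0 and 91.7 TPM at W12. S100A8 and S100A9 are made by activated keratinocytes and by myeloid cells, and the class II genes *H2-Aa* and *Cd74* were also higher at W12, while the other immune markers were not, as given above. *Krtdap* and *Sbsn* of the suprabasal list were higher as well, though that list's median change at W12 was 1.11 with D0 replicate 2 and 0.42 without it. The part of these in the result was not tested.

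Over the 10 libraries, the genes whose log2(TPM + 1) was most like each member differed between members. This is a description over 10 libraries that share timepoints. *Fos* and *Junb* were each most like *Zfp36* (Pearson *r* = 0.986 for both), an immediate-early gene for an mRNA decay factor, and *Fosb* most like *Csrnp1* (0.982) and then *Zfp36* (0.980). *Atf3* was most like *Sertad1* (0.980), *Btg2* and *Klf2*. *Fosl1* was most like *Egr4* (0.983), *Rgs2* and *Atf4*. *Jun* was most like *Jund* (0.975), *Med14* and *Myc*, and *Jund* most like *Etv3* (0.984), *Naif1* and *Gab1*. *Fosl2* was most like *Tfap2c* (0.966), *Tjp1* and *Magee1*, and *Batf* most like *Ccl11* (0.991), *Lmcd1* and *Cp*.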

How the data were processed

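RNA-seq of 10 libraries of sorted EpdSCs was analysed, with 2 biological replicates at each of 5 timepoints, grouped by the sample labels. The authors trimmed reads with Skewer, used Salmon 1.4.0 with GENCODE transcripts of GRCm38 plus the transgene, collapsed transcripts to genes with Tximport 1.12.3 and deposited TPM. Libraries were made with a low-input kit and sequenced on an Illumina NovaSeq SP per the study, or a NextSeq or NovaSeq per the labels. TPM hold no depth, so the precision from counting is unknown.

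The 13110 of 54332 genes whose mean reached 1 TPM were tested on log2(TPM + 1) with limma 3.58.1 in R 4.3.3, with 5 timepoint means fitted over all 10 libraries, eBayes with a trend, and Benjamini-Hochberg adjustment over all of them. Calls were made at an adjusted *P* under 0.05. The count-based Wald test of the study cannot be run on TPM. The step was tested on simulated data. Family shares were compared by exact permutation tests in Python 3.11.15 with numpy 2.4.6.

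The members, gene lists and tests were chosen with earlier results of these data known. The text names all 9 members, for each other list at most 4 called genes with the largest change at W12, and for each member the 3 genes with the highest correlation. Genes named outside this rule were chosen after their values were seen. GENCODE M21 (GRCm38) gave the gene positions, with identifiers and versions as in the deposited table. Promoters are from RefSeq on GRCm38.p6.

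The alternatives were a pseudocount of 0.1, other filters (no minimum, or a minimum mean of 5 TPM), scaling by median ratios or quantiles, eBayes without trend, only the 4 libraries compared, the replicate block, the immediate-early score as a covariate, and each library left out. The contrast of W12 with W2, crossed pairings, and list counts and medians without D0 replicate 2 were chosen after seeing the data. The deposited table of 4 placode libraries holds only the authors' own comparison (mean normalized counts, fold changes, standard errors, Wald statistics and *P* values) and was not used here.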

Additional observations from a re-analysis of the deposited data

How the results depend on the processing

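With 2 libraries per timepoint, counts of called members depended on single libraries and on how the spread was estimated. The members called against D0 ranged over the settings that leave out a library from 4 to 7 at W1, 2 to 7 at W2, 7 to 9 at W6 and 8 to 9 at W12, and 8 to 9 in the *F* test. Between later timepoints the ranges were 0 to 1 (W6 vs W2), 0 to 2 (W12 vs W6) and 1 to 5 (W12 vs W2). These counts include *Batf*, which entered the fit through W12, and without it the ranges were 7 to 8 at W6, 7 to 8 at W12, 0 to 1 from W6 to W12 and 0 to 4 from W2 to W12. With every gene above 0 TPM kept, 3 members were called at W1, 2 at W2 and 1, *Batf*, from W2 to W12, and with a mean of at least 5 TPM, which removes *Batf*, 0 were called from W6 to W12. With only the 4 libraries compared in the fit, 1 member was called at W1.

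With the immediate-early score as a covariate, 0 members were called against D0 at W1, W2, W6 and W12, 2 from W2 to W6, 3 from W6 to W12 (2 besides *Batf*) and 5 of 9 in the *F* test, which then called 43.2% of all genes. In that fit the change from D0 reversed for *Fosb* (0.43), *Fosl2* (0.91), *Jun* (0.63) and *Jund* (0.43) at W1. At W2 it reversed for *Fos* (0.0018), *Fosb* (0.47), *Fosl2* (0.63), *Jun* (0.91), *Jund* (0.34), *Atf3* (0.21) and *Batf* (−0.033). It reversed for *Fos* (0.12), *Fosb* (0.29), *Fosl2* (0.19) and *Jun* (0.38) at W6 and for *Fosl1* (0.24) and *Atf3* (0.58) at W12. The cause was not tested. The change of *Batf* at W1, which was not called, ranged from −0.148 to 0.027 over the settings that leave out a library and turned sign without D0 replicate 1.

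Leaving out 1 library, the difference between D0 and induced libraries in the summed FOS over JUN TPM ranged from −0.0667 to 0.164 and reversed without D0 replicate 1 (−0.0667), and that in the share of *Fos* and *Fosb* from −4.98 to −2.76 percentage points. Between the early and late timepoints the ranges were −0.238 to −0.177 and 1.79 to 3.48. A tally over all settings covered the members' changes from D0 and those called from W6 to W12 and from W2 to W12. Of these, 709 kept direction and side of the threshold, 79 lost the call, 5 gained it and 18 reversed. Other changes between induced timepoints, where the covariate fit added calls, were not in this tally. Median-ratio scaling moved the median change of all genes at W1 from 0.09 to −0.01 and at W6 from 0.08 to −0.05, without moving any count of called members by over 1.5 times. The call of *Fosl2* from W2 to W12 was lost under this scaling (−0.89) and under quantile normalization (−0.78). Where a library was left out, the single one left at its timepoint was assumed to vary like the others.

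The replicate block gave 7, 6, 8 and 9 members called against D0 and 0, 0 and 1 in the steps between later timepoints, as without it, where the ninth at W12 and the 1 are *Batf*. Replicate numbers do not pair the samples, as the correlation of same-numbered deviations was between −0.129 and 0.182. With the numbers crossed where it was under −0.1, 7 members were called at W1, 8 at W6 and 1, *Batf*, from W6 to W12.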
